A study of Homo sapiens with 12 samples.

Results

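Cohesin, condensin, the SMC5/6 complex and topoisomerase II are the machines that hold, fold and untangle chromosomes, and 34 human genes for their subunits and regulators were followed here out of 60648 genes in the count table. The 34 were taken by name from known roles: 5 genes of the cohesin ring, 2 of cohesin loading, 7 of cohesin release and acetylation, 4 of cohesion protection and cleavage, the 2 SMC subunits that both condensins share, 3 further subunits of condensin I and 3 of condensin II, 6 of SMC5/6, and the 2 type II topoisomerases. Poly-A RNA was sequenced from HCT116 cells, an established line from a human colon carcinoma, with 3 libraries in each of 4 groups. The groups were MTHFD2-WT and MTHFD2-KO cells taken either at the outset (initial) or once 2 months in culture had passed (final), and all were kept in the same serum-containing medium. MTHFD2 is an enzyme of mitochondrial folate metabolism that has also been placed in the nucleus, and the study's title links it to centromeres, chromosome stability and mitosis. The KO cells came from 1 clone made with CRISPR-Cas9, so a difference between genotypes cannot be told apart from a difference between that clone and the WT culture. The submitters call the libraries of a group biological replicates without saying whether they came from separate cultures, so the p-values measure the spread between these libraries.

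Cohesin is a ring of SMC1A, SMC3, RAD21 and either STAG1 or STAG2 that encircles DNA, forms loops and holds sister chromatids together from S phase to anaphase. NIPBL and MAU2 load it, WAPL with PDS5A or PDS5B opens it, ESCO1 and ESCO2 acetylate SMC3 so that CDCA5 (sororin) can lock it, HDAC8 removes that acetyl mark, shugoshins SGO1 and SGO2 shield it at centromeres, and separase (ESPL1), held in check by securin (PTTG1), cuts it. Condensin I and II compact mitotic chromosomes, SMC5/6 acts in repair and replication, and topoisomerase II passes one DNA duplex through another so that sister chromatids can part. Transcripts of 12 of the 34 genes are known to peak between S phase and mitosis (ESCO2, CDCA5, SGO1, SGO2, ESPL1, PTTG1, SMC2, SMC4, NCAPD2, NCAPG, NCAPH and TOP2A), and these are called cell-cycle members below.

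Library totals ran from 38597809 to 40017561 counts, and 18289 genes passed the filter on low counts, among them 33 of the 34 members. The exception was NSMCE3, a subunit of SMC5/6, which had 0 counts in all 12 libraries. A floor of 3 counts per library would be 0.0750 to 0.0777 CPM (counts scaled to the size of the library). The settings of the counting are not given in the sources used here, so whether the 0 reflects expression or the counting cannot be told apart. NSMCE3 (ENSG00000185115.6, GRCh38 chromosome 15, 29264989 to 29269822) lies inside the range of another gene, ENTREP2, with no shared exon. MTHFD2, the targeted gene, stood at 375 to 457 CPM in the initial WT libraries, 319 to 379 in the final WT, 128 to 146 in the initial KO and 123 to 155 in the final KO. It was lower in the KO at both harvests (log2 fold change -1.59, adjusted p = 3.00e-08, and -1.38, adjusted p = 1.09e-07, edgeR's quasi-likelihood test with Benjamini-Hochberg adjustment). All libraries had the epithelial markers EPCAM (307 to 514 CPM) and KRT8 (843 to 1371 CPM), while the leukocyte and endothelial lists summed to at most 0.905 and 2.22 CPM. The epithelial list also held KRT18, KRT19 and CDH1, each at 106.9 CPM or more in every library. Its last gene, VIL1, had only 0.0252 to 0.326 CPM and did not pass the filter on low counts. Of the epithelial list, 4 of 5 genes tested were lower in the KO on average and none higher, and its summed level was 2613 to 3217 CPM in the initial WT, 3045 to 3189 in the final WT, 2452 to 2688 in the initial KO and 2201 to 2572 in the final KO. Of the fibroblast list, COL1A1 had 36.2 to 77.3 CPM while DCN had 0 counts, and 2 of 3 genes tested were lower and 1 higher in the KO on average. The part of these markers in the members' values was not tested. In bulk RNA, fewer cells of a kind and less RNA per cell cannot be told apart, and this holds for every value of a cell-cycle member.

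Promoter sequences of 5 members with a CHR motif are shown first, chosen after the motif search from the genes described later, because many cell-cycle genes are known to be read from CCAAT boxes and from cell-cycle homology region (CHR) elements. They include SMC3 and TOP2B, the only members outside the cell-cycle group with a CHR motif, and TOP2A, the partner of TOP2B, which was called in none of the comparisons with the settings used here. The windows of STAG2 and NCAPD3, which were called, held no CHR motif and are not shown. The sequences come from the 250 bases before an annotated start in RefSeq, on GRCh38.p14, and are written 5′ to 3′ on the gene's strand. Capitals mark matches on either strand, so a match on the other strand appears as the reverse complement. One motif searched was the CCAAT box. The CHR element was searched as TTTGAA and, in a form that reads alike on both strands, as TTCGAA. The E2F motifs searched were TTTCCCGC and TTTGGCGC. None of the matches printed here overlap. The first pair are the topoisomerases, TOP2A at chr17:40417897-40418146 and TOP2B at chr3:25664940-25665157 (both minus strand), then SMC3 at chr10:110567445-110567694 (plus), and short stretches of CDCA5 at chr11:65084059-65084088 (minus) and NCAPD2 at chr12:6493945-6493974 (plus). The TOP2B stretch ends 33 bases before the start. The CDCA5 stretch runs from 48 to 19 bases before it. The NCAPD2 stretch runs from 157 to 128 bases before it, and those of CDCA5 and NCAPD2 lie inside the gene ranges of the count table.
TOP2A: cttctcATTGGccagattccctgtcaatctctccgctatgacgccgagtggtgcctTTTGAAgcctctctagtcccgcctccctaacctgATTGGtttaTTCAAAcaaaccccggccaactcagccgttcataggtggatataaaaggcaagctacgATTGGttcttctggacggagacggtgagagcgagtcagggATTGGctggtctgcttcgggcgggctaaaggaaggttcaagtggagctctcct
TOP2B: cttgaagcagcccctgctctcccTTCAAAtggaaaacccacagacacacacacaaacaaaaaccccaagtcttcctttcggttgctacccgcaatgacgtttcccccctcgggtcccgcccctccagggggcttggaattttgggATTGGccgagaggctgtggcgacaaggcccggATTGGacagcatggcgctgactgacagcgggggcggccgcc
SMC3: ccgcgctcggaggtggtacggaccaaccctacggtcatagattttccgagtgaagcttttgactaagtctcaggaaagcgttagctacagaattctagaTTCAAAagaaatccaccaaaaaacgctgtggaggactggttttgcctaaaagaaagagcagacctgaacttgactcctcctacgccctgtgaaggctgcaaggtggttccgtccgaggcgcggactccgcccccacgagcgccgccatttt
CDCA5: tccTTTCCCGCagggcgggtaaTTCGAAcg
NCAPD2: cagccgttgagaTTTGAActcggtatttgt
The TOP2A promoter held 4 CCAAT boxes and 2 CHR motifs in 250 bases, and the TOP2B stretch held 2 and 1. The SMC3 promoter had 1 CHR motif and no CCAAT box. The CDCA5 stretch joined an E2F motif to a CHR motif within 30 bases. In NCAPD2, 1 CHR motif is shown, and 4 CCAAT boxes lay elsewhere in its 250 bases.

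RefSeq windows were found for 29 of the 34 members, 38 windows in all, and the same 250 bases were searched in 35116 windows of all genes. Either CHR motif was in 6 of 15 windows of cell-cycle members (40.0%), in 2 of 23 windows of other members (8.70%) and in 14.3% of all windows. A CCAAT box was in 17 of the 38 members' windows (44.7%), against 32.0% of all windows. An E2F motif was in 1 of the 15 cell-cycle windows and in 5 of the other 23, against 1.93% of all windows. These matches are a description of letters, and several windows can belong to 1 gene.

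Among the 33 members measured, transcripts were abundant and steady. Over the 12 libraries the coefficient of variation of a member's CPM had a median of 9.03% (4.16% to 18.0%), and its highest library was a median of 1.33 times its lowest. Over all 18289 genes the median coefficient of variation was 15.9%, and over the 10604 genes at or above the level of the lowest member it was 11.3%. That level was set by HDAC8 (median 6.38 CPM), and every other measured member was more abundant, so neither set matched the members in level. The most variable member by its highest-to-lowest ratio was NCAPD2, a subunit of condensin I, at 1.75.

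**Figure D1:**
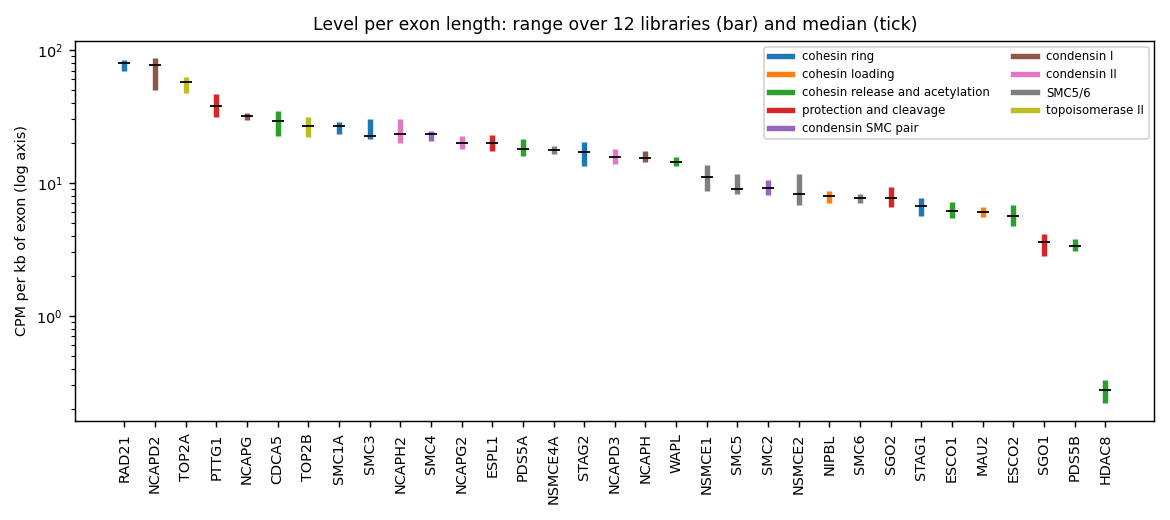
Level of each of the 33 measured members as CPM per kilobase of exon on a log axis, ordered by level and coloured by role. Bars span the lowest to the highest of the 12 libraries and ticks are medians, from RAD21 (median 79.5) down to HDAC8 (0.279), and the bars are short beside the differences between genes.

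Levels between genes are compared as CPM per kilobase of exon, averaged over all 12 libraries. RAD21, the ring's cleavable subunit, had the highest mean at 77.9 ± 4.87 (SD, n = 12), followed by NCAPD2 at 72.7 ± 12.5 and TOP2A at 56.3 ± 4.13. By group, RAD21 was above NCAPD2 in the WT (81.9 against 73.8 initial, 78.6 against 53.9 final). In the KO, NCAPD2 was above RAD21 (82.2 against 75.4 initial, 80.7 against 75.9 final). The rest of the ring lay lower, with SMC1A at 26.3, SMC3 at 24.4, STAG2 at 16.8 and STAG1 at 6.72. Neighbours in this order mostly overlapped: SMC3, NCAPH2 (23.5 ± 2.86) and SMC4 (23.0 ± 1.32) differed by less than their spread. The lowest measured members were SGO1 (3.64), PDS5B (3.38) and HDAC8 (0.276 ± 0.0306). The exon models behind these values differ in length, 22888 bases for HDAC8 against 5683 for SMC3, so a long model with few used exons lowers a value per kilobase.

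Ratios of partner genes, from the same per-kilobase values, showed which of 2 alternatives was the more abundant. STAG2 exceeded STAG1, the other exchangeable ring subunit, in every library, with a mean log2 ratio of STAG1 to STAG2 between -1.45 and -1.20 in the 4 groups. PDS5A exceeded PDS5B, its partner in cohesin release, by a mean log2 ratio of 2.39 to 2.53. The genes of condensin I exceeded those of condensin II by 0.66 ± 0.0271 (SD, n = 3) in the final WT and 0.84 ± 0.0487 in the final KO, with 0.74 ± 0.0409 and 0.75 ± 0.0496 at the initial harvest. Each side is a mean log2 level of 3 genes. Within condensin I, NCAPD2 had a final log2 fold change, KO over WT, of 0.58, and the others had 0.02 and 0.07. ESCO1 and ESCO2, the 2 acetyltransferases, were near parity throughout (0.19 ± 0.113 in the initial WT and -0.02 ± 0.0220 in the final KO). The ratio of SGO1 to SGO2 was -0.99 ± 0.278 in the initial WT, -1.45 ± 0.0763 in the final WT, -0.86 ± 0.0835 in the initial KO and -0.95 ± 0.183 in the final KO. The final WT libraries were therefore the lowest for this pair.

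**Figure D2:**
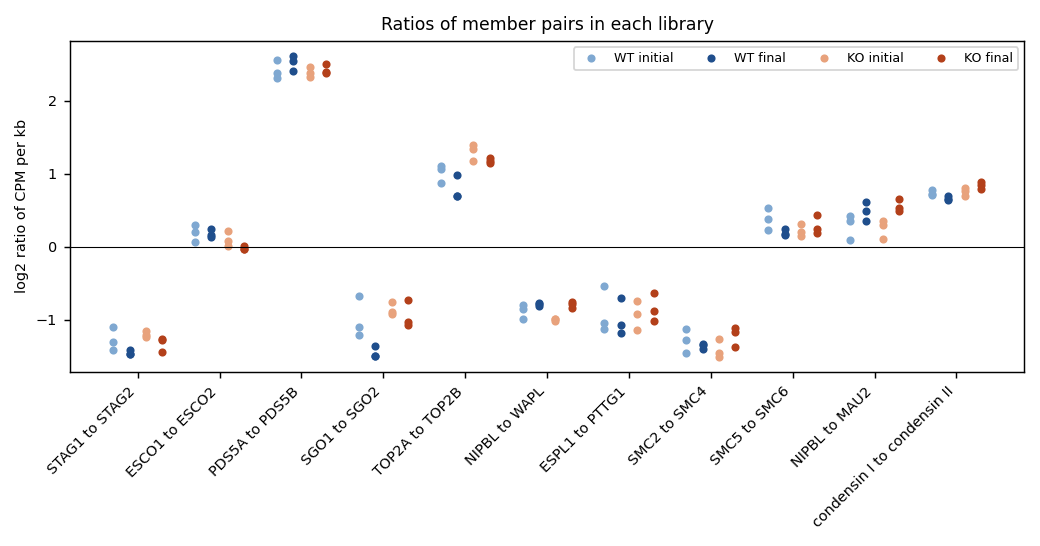
Log2 ratio of CPM per kilobase for 11 pairs of genes or gene sets, with 1 point for each of the 12 libraries, coloured by genotype and harvest. The ratio of TOP2A to TOP2B was 0.69 to 1.105 in the WT libraries and 1.15 to 1.39 in the KO libraries, while the STAG and PDS5 pairs overlapped between genotypes.

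The genotype comparison asks whether MTHFD2-KO cells express the chromosome machinery differently. Most of it did not pass the test at either harvest. At the initial harvest the KO had less STAG2, the ring's main exchangeable subunit, and more CDCA5, the sororin that locks cohesin on replicated chromosomes. At the final harvest it had less SMC3 and NSMCE2 and more CDCA5 and NCAPD2. Averaged over both harvests, 3 members were higher (CDCA5, NCAPD2, NCAPD3) and 4 lower (SMC3, STAG2, NSMCE2, TOP2B).

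Counts of called members have to be read against all genes. At the initial harvest 2 of 33 members passed (6.06%), against 19.9% of all genes tested; 1 was higher, against 8.55%, and 1 lower, against 11.3%. At the final harvest 4 of 33 passed (12.1%), against 18.5%; 2 were higher, against 8.38%, and 2 lower, against 10.2%. In the average of both 7 of 33 passed (21.2%), against 30.1%; 3 were higher, against 14%, and 4 lower, against 16.1%. The share of members called was below that of all genes in all 3 comparisons. Groups of libraries that did not overlap were found for 8 of 33 members at the initial harvest (24.2%), against 35.5% of all genes, and for 8 of 33 at the final harvest (24.2%), against 33.1%. Here and below, called means an adjusted p under 0.05 in edgeR's quasi-likelihood test with Benjamini-Hochberg adjustment over 18289 genes.

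The sizes were small. The median absolute log2 fold change of the members was 0.07 (initial) and 0.08 (final), against 0.20 and 0.19 over all genes. No member reached a 1.5-fold difference in any of the 6 comparisons, but NCAPD2 came close at the final harvest and passed it in 7 of 19 alternatives, RLE and upper-quartile scaling included. Its log2 fold change ran from 0.52 to 0.65 over the 19. Of all genes, 14.8% reached it in the initial and 15.3% in the final comparison. The 95% interval of the fold change lay wholly inside 1.5-fold in either direction for all 33 members at the initial harvest and for 31 at the final harvest, against 54.9% and 56.0% of all genes. The 2 exceptions at the final harvest were NCAPD2 and NSMCE2. Members also had smaller standard errors, a median of 0.0863 at each harvest against 0.130 over all genes. All genes include those less abundant than any member, and the part of abundance in these contrasts was not tested.

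**Figure D3:**
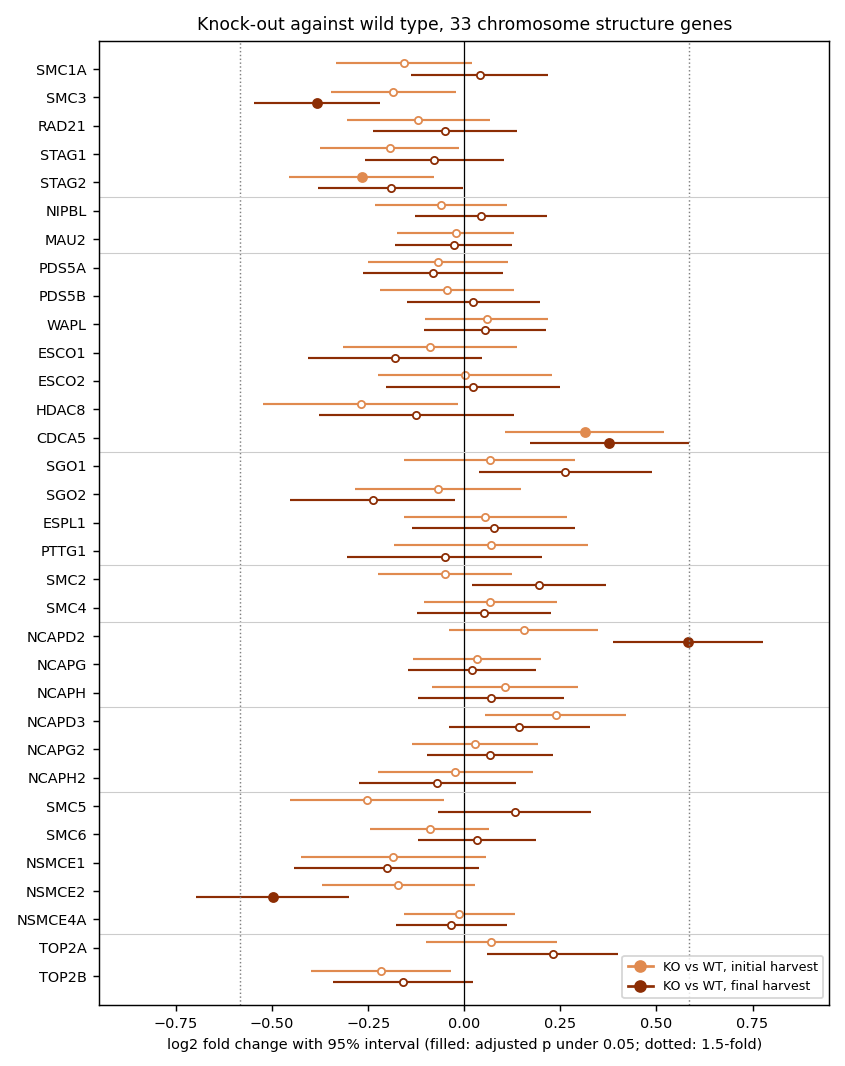
Log2 fold change, KO over WT, with its 95% interval for each of the 33 measured members, initial harvest in orange and final in dark brown, with filled points for an adjusted p under 0.05 and dotted lines at 1.5-fold. NCAPD2 lies farthest to the right at 0.58 and NSMCE2 farthest to the left at -0.50, both at the final harvest.

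In the cohesin ring, all 5 genes had a log2 fold change below 0 in the average comparison, from -0.28 to -0.06 with a median of -0.14, but only SMC3 and STAG2 passed. The 5 signs were the same at the initial harvest (median -0.18) and under RLE and upper-quartile scaling, and at the final harvest 4 of 5 were below 0. SMC3 (ENSG00000108055.10, GRCh38 chromosome 10, 110567695 to 110606048, plus strand), the ring subunit that the ESCO enzymes acetylate, had 128, 150 and 146 CPM in the initial WT, 163, 156 and 171 in the final WT, 121, 124 and 128 in the initial KO and 127, 123 and 126 in the final KO. Every final KO library lay below every final WT library, while 1 of the initial WT libraries fell among the KO values. SMC3 was lower in the KO at the final harvest (log2 fold change -0.38, SE 0.0771, adjusted p = 0.00195, edgeR's quasi-likelihood test), and at the initial harvest the value was -0.18 (adjusted p = 0.108). The final call held in 19 of 19 alternative analyses. In the KO the SMC3 level differed between harvests by less than its spread, 124 ± 3.64 and 125 ± 2.08 CPM (SD, n = 3).

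STAG2 (ENSG00000101972.19, GRCh38 chromosome X, 123960212 to 124422664, plus strand) had 147, 136 and 146 CPM in the initial WT and 109, 121 and 126 in the initial KO. The groups did not overlap at that harvest. In the final WT it had 148, 148 and 165 CPM and in the final KO 151, 126 and 128, where 1 KO library reached into the WT range. It was lower in the KO at the initial harvest (log2 fold change -0.27, SE 0.0889, adjusted p = 0.0443) and in the average of both (-0.23, SE 0.0628, adjusted p = 0.0106, edgeR's quasi-likelihood test). In the final comparison it stood at -0.19 (adjusted p = 0.156). The average held in 18 of 18 alternatives and the initial call in 9 of 19 (adjusted p = 0.0282 to 0.193). The initial call was lost with a replicate block, without a filter on low counts and, at adjusted p = 0.0545 to 0.193, without any 1 of the initial KO libraries, initial WT replicates 1 or 3, final WT replicates 2 or 3, or final KO replicate 3. Among the ring's other genes, SMC1A (-0.16), RAD21 (-0.12) and STAG1 (-0.19) had KO libraries all below the WT libraries at the initial harvest, with adjusted p of 0.212, 0.384 and 0.128. STAG1 exons overlap those of PCCB on the other strand, which held 32523 counts in all against 24919 for STAG1.

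Loading and release showed less. NIPBL, the loader, had an average log2 fold change of -0.01 (95% interval -0.13 to 0.11), and its partner MAU2 -0.02 (-0.13 to 0.08). WAPL, which releases cohesin from chromosome arms, had 0.06 (-0.06 to 0.17). PDS5A had -0.07 and HDAC8, the SMC3 deacetylase, -0.20 (adjusted p = 0.0917). ESCO2, the S-phase acetyltransferase, was at 0.01 (-0.15 to 0.17). PDS5B, the other partner of WAPL, had -0.01 (-0.13 to 0.11), and ESCO1, the acetyltransferase active outside S phase, -0.13 (-0.30 to 0.03). None of these 8 passed the test in any of the 6 comparisons.

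CDCA5 was the member called at both harvests. CDCA5 (ENSG00000146670.10, GRCh38 chromosome 11, 65066300 to 65084164, minus strand) had 99.7, 126 and 94.6 CPM in the initial WT and 135, 132 and 131 in the initial KO, then 96.1, 88.2 and 87.7 in the final WT and 121, 109 and 124 in the final KO. KO libraries were above WT libraries at each harvest, by the least margin against initial WT replicate 2. In edgeR's quasi-likelihood test the initial log2 fold change came to 0.31 (SE 0.0973, adjusted p = 0.0322), the final one to 0.38 (SE 0.0976, adjusted p = 0.0118) and their average to 0.35 (SE 0.0689, adjusted p = 0.00111). The average call held in 18 of 18 alternatives, the initial call in 13 of 19 and the final call in 15 of 19. The initial call was lost with only the libraries compared and (adjusted p = 0.0782 to 0.172) without any 1 initial KO library or initial WT replicates 1 or 3. The final call was lost (adjusted p = 0.0526 to 0.0644) without final KO replicates 1 or 3 or final WT replicates 2 or 3. CDCA5 shares no exon with another annotated gene. Of 17 proliferation genes, 5 were higher in the average comparison (MCM4, CDK1, BUB1B, AURKA and PLK1, log2 fold change 0.17 to 0.24) and none lower, against 14% of all genes tested higher, and their part in the CDCA5 difference was not tested.

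Protection and cleavage gave no call. SGO1, the shugoshin of centromeric cohesin, had 10.5, 12.5 and 12.4 CPM in the final WT and 14.5, 12.9 and 15.1 in the final KO, groups that did not overlap, with a log2 fold change of 0.26 and adjusted p = 0.102. SGO2 pointed the other way at that harvest, -0.24 with adjusted p = 0.122. Separase (ESPL1) had an average of 0.07 (95% interval -0.08 to 0.22) and securin (PTTG1) 0.01 (-0.17 to 0.19). Reads of PTTG1 could in principle be shared with its near copies PTTG2 and PTTG3P, which held 28 and 27 counts in all 12 libraries together.

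Condensin I held the largest difference of all members. NCAPD2 (ENSG00000010292.13, GRCh38 chromosome 12, 6493356 to 6531955, plus strand), a HEAT-repeat subunit of condensin I, had 454, 519 and 460 CPM in the initial WT, 381, 322 and 344 in the final WT, 509, 563 and 523 in the initial KO and 523, 491 and 553 in the final KO. The final WT libraries stood apart as the 3 lowest of the 12. NCAPD2 was higher in the KO at the final harvest (log2 fold change 0.58, SE 0.0919, adjusted p = 0.000244, edgeR's quasi-likelihood test) and in the average (0.37, SE 0.0648, adjusted p = 0.000363), while at the initial harvest the value was 0.15 (adjusted p = 0.266). The final call held in 19 of 19 alternatives and the average in 18 of 18. Its exons overlap those of MRPL51 on the other strand, and since the strandedness of the counting is not stated, reads of such pairs cannot be separated. MRPL51 itself had a final log2 fold change of -0.07 (adjusted p = 0.772). A pseudogene, NCAPD2P1, held 276 counts in all.

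**Figure D4:**
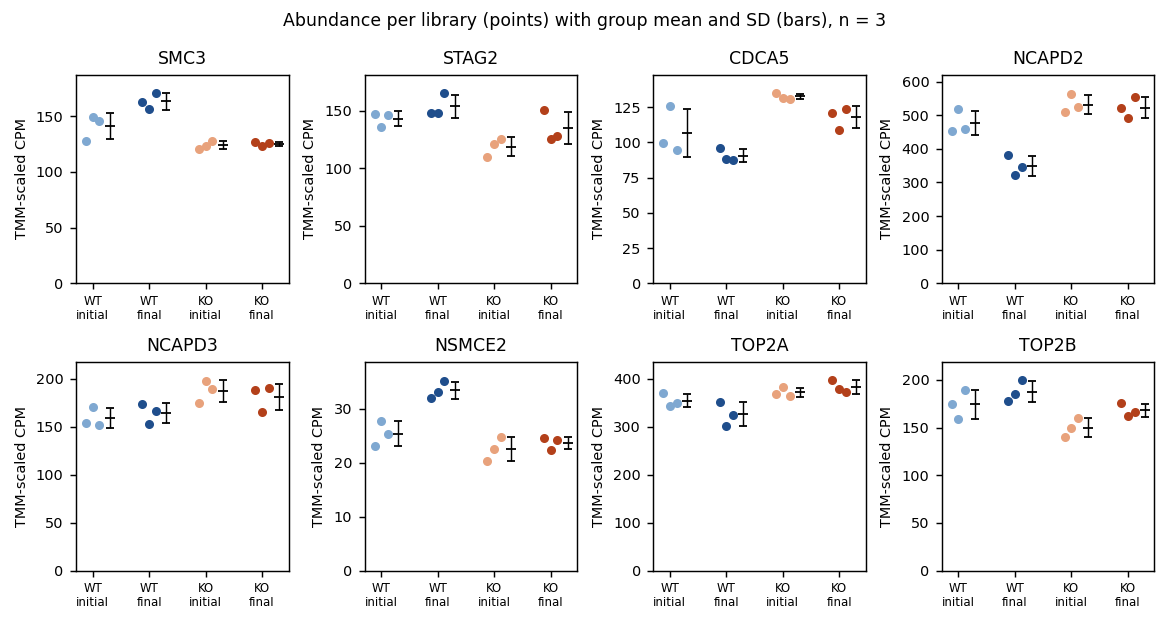
CPM in each library for the members called in the average comparison and for TOP2A, which was not called, with the group mean and SD (n = 3 libraries). The final WT libraries are the lowest for NCAPD2 (322 to 381 CPM) and the highest for NSMCE2 (31.9 to 35.1 CPM), and KO libraries lie above WT libraries for CDCA5 at each harvest.

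The other condensin genes had smaller values. NCAPG and NCAPH, the remaining subunits of condensin I, averaged 0.03 and 0.09, and neither passed. NCAPD3 (ENSG00000151503.13, GRCh38 chromosome 11, 134150113 to 134225454, minus strand), the counterpart of NCAPD2 in condensin II, had 154, 171 and 152 CPM in the initial WT, 173, 153 and 167 in the final WT, 175, 198 and 189 in the initial KO and 188, 166 and 190 in the final KO. Its ranges were apart at the initial harvest and overlapped at the final. It was higher in the average (log2 fold change 0.19, SE 0.0610, adjusted p = 0.0264), a call held in 10 of 18 alternatives. It was lost without a filter on low counts and (adjusted p = 0.0536 to 0.0885) without any 1 of initial KO replicates 2 or 3, final KO replicates 1 or 3, initial WT replicate 3 or final WT replicates 2 or 3. NCAPD3 exons overlap those of 3 genes on the other strand, mainly VPS26B, and reads of such pairs cannot be separated. VPS26B had an average log2 fold change of 0.06 (adjusted p = 0.365, edgeR's quasi-likelihood test). SMC2 and SMC4, the ATPases that both condensins share, averaged 0.07 and 0.06 and were not called. In condensin II, NCAPG2 averaged 0.05 (-0.07 to 0.16) and NCAPH2 -0.05 (-0.19 to 0.10), with 95% intervals in parentheses.

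In SMC5/6, the 5 measured genes all had average values below 0 (median -0.06) and 1 passed. NSMCE2 (ENSG00000156831.8, GRCh38 chromosome 8, 125091679 to 125367120, plus strand), the SUMO ligase of the complex, had 23.1, 27.7 and 25.3 CPM in the initial WT, 31.9, 33.1 and 35.1 in the final WT, 20.3, 22.6 and 24.7 in the initial KO and 24.5, 22.3 and 24.1 in the final KO. Here the final WT libraries were the 3 highest of the 12. NSMCE2 was lower in the KO at the final harvest (log2 fold change -0.50, SE 0.0939, adjusted p = 0.00118, edgeR's quasi-likelihood test) and in the average (-0.33, SE 0.0665, adjusted p = 0.00106). Its value in the initial comparison was -0.17 (adjusted p = 0.229). The final call held in 19 of 19 alternatives and the average in 18 of 18. Its exons overlap WASHC5 on the other strand, which had -0.10 (adjusted p = 0.392) at the final harvest. On average, SMC6, the partner ATPase of SMC5, had -0.03 (-0.14 to 0.08) with its 95% interval, NSMCE1, a RING-domain subunit, -0.19 (-0.36 to -0.02), and NSMCE4A, a bridging subunit, -0.02 (-0.13 to 0.08), and none of the 3 was called.

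SMC5, an ATPase of the complex, was the only member besides NCAPD2 and NSMCE2 with an unadjusted p under 0.05 for the change of its genotype difference with time, and it is described for that reason, after its values were seen. Such an unadjusted p was found for 9.09% of members and for 12.3% of all genes. SMC5 had 76.4, 59.6 and 68.6 CPM in the initial WT, 54.8, 57.9 and 60.6 in the final WT, 58.0, 54.8 and 58.8 in the initial KO and 64.2, 68.1 and 57.4 in the final KO. KO libraries were below WT libraries at the initial harvest and overlapped them at the final. The log2 fold changes were -0.25 (adjusted p = 0.0704) and 0.13 (adjusted p = 0.388). Without initial WT replicate 2 the initial value was -0.35 (adjusted p = 0.0104).

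Of the 2 type II topoisomerases, TOP2B was lower in the KO on average and TOP2A had values above 0 that did not pass. TOP2B (ENSG00000077097.16, GRCh38 chromosome 3, 25597984 to 25664907, minus strand), the form found throughout the cell cycle, had 175, 159 and 189 CPM in the initial WT, 178, 186 and 200 in the final WT, 140, 150 and 160 in the initial KO and 176, 162 and 166 in the final KO. It was lower in the KO on average (log2 fold change -0.19, SE 0.0606, adjusted p = 0.0266, edgeR's quasi-likelihood test), in 12 of 18 alternatives. The call was lost (adjusted p = 0.0523 to 0.0825) without any 1 of initial KO replicates 1 or 2, final KO replicates 2 or 3, initial WT replicate 3 or final WT replicate 3. TOP2A (ENSG00000131747.15, GRCh38 chromosome 17, 40388525 to 40417896, minus strand), the mitotic form and the target of several cancer drugs, is given beside it as its partner. It had 370, 343 and 350 CPM in the initial WT, 352, 302 and 325 in the final WT, 368, 382 and 365 in the initial KO and 398, 379 and 371 in the final KO. TOP2A was at 0.23 (adjusted p = 0.0579) at the final harvest, with ranges apart, and 0.15 (adjusted p = 0.0572) on average. The final value passed in 4 of 19 alternatives, among them DESeq2 (adjusted p = 0.0140) and the fit without final WT replicate 1 (adjusted p = 0.0224).

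The log2 ratio of TOP2A to TOP2B per kilobase joined both directions in 1 number. It was 1.02 ± 0.120 (SD, n = 3) in the initial WT, 0.79 ± 0.165 in the final WT, 1.30 ± 0.111 in the initial KO and 1.18 ± 0.0333 in the final KO. The WT libraries ran from 0.69 to 1.105 and the KO libraries from 1.15 to 1.39, without overlap. It was singled out among 11 ratios for this pattern, so it is given as a description with no test.

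Grouped by cell-cycle behaviour, the members divided by sign more than by call. In the initial comparison 10 of 12 cell-cycle members lay above 0 (median 0.07) and 18 of 21 other members below 0 (median -0.09), or 17 of 21 with upper-quartile scaling. At the final harvest 10 of 12 lay above 0 (median 0.07) and 13 of 21 below 0 (median -0.05). Of the cell-cycle members 1 was called higher in the initial comparison, 2 in the final one and 2 in the average, and none lower. Of the others, 1 was called lower in the initial comparison, 2 in the final one and 4 in the average, where 1 was higher. Over all genes tested, 50.0% lay above 0 in the initial comparison and 49.9% in the final one. The shares of all genes called higher were 8.55% (initial), 8.38% (final) and 14% (average), and those called lower 11.3%, 10.2% and 16.1%. Of the 17 proliferation genes, 14 lay above 0 in the initial comparison (median 0.16) and 10 in the final one (median 0.03). Their summed level was 3437 to 4361 CPM in the initial WT and 3847 to 4239 in the initial KO, ranges that overlapped. At the final harvest it was 3581 to 3827 CPM in the WT and 3427 to 3973 in the KO, which overlapped too, and its part in these signs was not tested.

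The time comparison sets the final harvest, after 2 months of culture, against the initial one in each genotype. Culture time and harvest go together in this design, so their parts in a difference cannot be told apart. In the WT, NCAPD2 fell and NSMCE2 rose, the same 2 genes for which the final WT libraries stood apart above, and in the KO no member was called. These tests use the same final WT libraries as the final genotype comparison, so they are not separate evidence. The 2 of 33 called (6.06%) compare with 6.47% of all genes; 1 rose, against 3.05%, and 1 fell, against 3.42%. In this comparison 7 of 33 (21.2%) had harvests that did not overlap, against 22.2% of all genes. In the KO, 0 of 33 were called, against 1.48% of all genes. DESeq2 also called 0, and 2 members (6.06%) had an unadjusted p under 0.05 in edgeR's quasi-likelihood test, against 14.9% of all genes. Harvests did not overlap for 7 of 33 members (21.2%), against 23.2%.

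**Figure D5:**
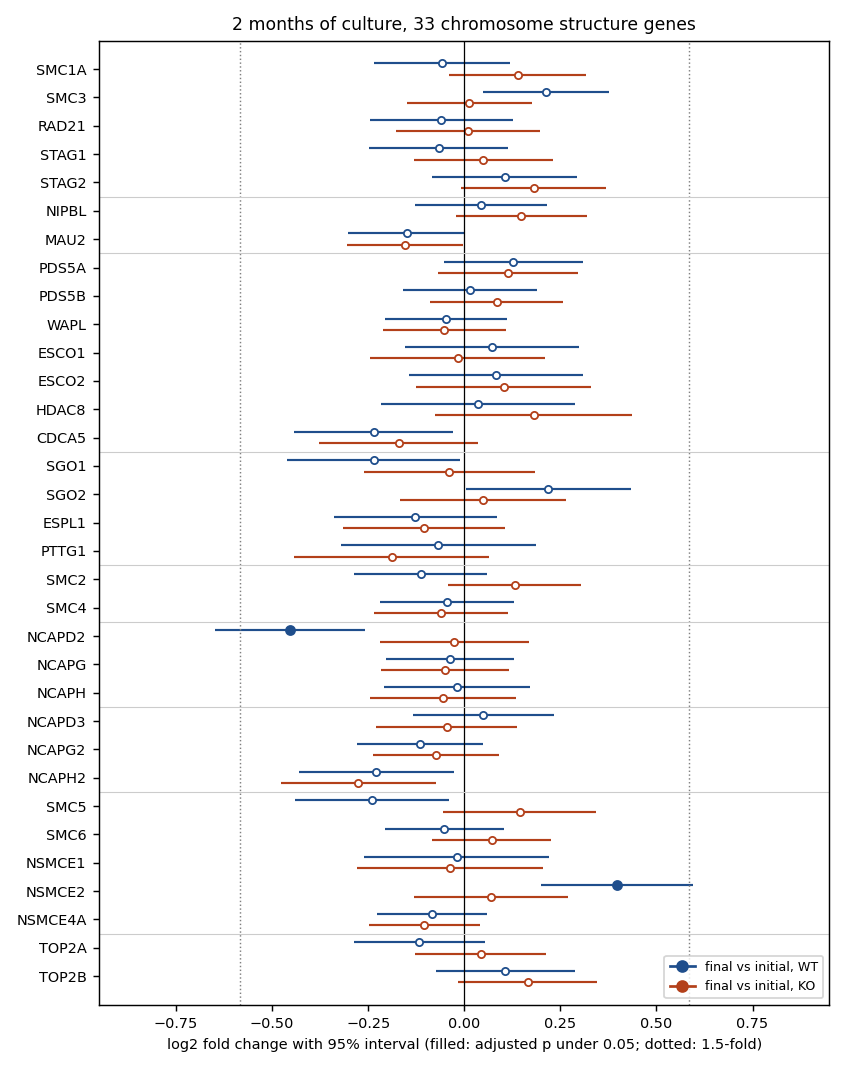
Log2 fold change, final over initial harvest, with its 95% interval for each of the 33 measured members in WT and in KO cells, with filled points for an adjusted p under 0.05 and dotted lines at 1.5-fold. In the WT, NCAPD2 lies at -0.45 and NSMCE2 at 0.40, and no member passed in the KO.

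NCAPD2 fell by 0.45 on the log2 scale in the WT (SE 0.0918, adjusted p = 0.00646, edgeR's quasi-likelihood test) and stood at -0.03 in the KO (95% interval -0.22 to 0.17). The WT call held in 18 of 19 alternatives and was lost without final WT replicate 2 (adjusted p = 0.0569). NSMCE2 rose by 0.40 in the WT (SE 0.0936, adjusted p = 0.0173) and stood at 0.07 in the KO (-0.13 to 0.27). That call held in 14 of 19 alternatives, and was lost with only the libraries compared and (adjusted p = 0.0593 to 0.0911) without initial WT replicates 1 or 3 or final WT replicates 2 or 3. NCAPH2, a condensin II subunit, had -0.23 in the WT and -0.28 in the KO, with the final libraries below the initial ones in both and adjusted p of 0.188 and 0.176.

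Whether the genotype difference itself changed between harvests is the interaction of genotype and time. It was called for 0 of 33 members, against 1.28% of all genes. In edgeR's quasi-likelihood test 3 members (9.09%) had an unadjusted p under 0.05, against 12.3% of all genes. The 3 members were NCAPD2 (log2 difference 0.43, SE 0.130, adjusted p = 0.149), SMC5 (0.38, adjusted p = 0.218) and NSMCE2 (-0.33, adjusted p = 0.317). DESeq2 called 1, NCAPD2, at adjusted p = 0.0384. A change of NCAPD2 or NSMCE2 in the WT and not in the KO is thus not shown as a difference between genotypes by edgeR.

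The genes that work beside these complexes were taken from lists of 52 genes in 7 groups. At the initial harvest MCPH1, which restrains condensin II, was higher in the KO (log2 fold change 0.31, adjusted p = 0.0111), and SMCHD1 and TDP2 were lower. At the final harvest the same 3 were called, with RAD18, which helps to recruit SMC5/6 to damaged forks, also higher (0.24, adjusted p = 0.0416). Over all genes tested, 19.9% were called at the initial harvest and 18.5% at the final, a larger share than in these lists. SMCHD1, a non-canonical SMC protein of the inactive X chromosome, had 119 to 155 CPM in the initial WT, 131 to 142 in the final WT, 78.6 to 81.3 in the initial KO and 77.2 to 94.6 in the final KO. Its average log2 fold change was -0.72 (adjusted p = 7.07e-07, edgeR's quasi-likelihood test). TDP2, the phosphodiesterase that frees topoisomerase II from broken DNA ends, had 36.4 to 39.3 CPM in the initial WT, 37.4 to 44.9 in the final WT, 16.5 to 21.3 in the initial KO and 18.8 to 22.8 in the final KO. Its average was -1.04 (adjusted p = 2.93e-08). Both differed by more than any of the 33 members, and neither had overlapping genotypes at either harvest. Whether genes beside them on their chromosomes differed alike was not tested, so neither value is shown to be particular to the gene.

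Other partners changed less. In the average comparison, 3 of 8 genes of centromeric cohesion protection were higher, where 14% of all genes tested were: HASPIN, the kinase that marks centromeric histone H3 (0.20, adjusted p = 0.0463), and the chromosomal passenger genes CDCA8 (0.22, adjusted p = 0.0136) and BIRC5 (0.22, adjusted p = 0.0494). Of the 7 genes that couple cohesion to the replication fork, 1 was higher, DSCC1 (0.26, adjusted p = 0.00668), and none lower, against 14% and 16.1% of all genes. In the lists of chromosome structure (6 genes), SMC5/6 partners (4) and other topoisomerases and TDP enzymes (6), those called were MCPH1 and RAD18 higher and SMCHD1 and TDP2 lower. Of the 4 meiotic cohesin genes 3 were tested and 0 called, with STAG3 the most abundant at 2.78 to 4.69 CPM. By edgeR's quasi-likelihood test, no partner gene tested was called over time in the WT, over time in the KO or in the interaction. Of all genes, 6.47%, 1.48% and 1.28% were called in these comparisons.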

How the data were processed

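Poly-A RNA libraries of 12 samples were analysed. Per the submitters' processing notes, the tools were STAR, featureCounts and Subread on hg38, with no versions or settings named. The authors deposited raw counts per gene, not normalized, per the file headers. Of 60648 genes, 60636 had a symbol. The 37318 gene IDs found with the same version in GENCODE 29 had identical GRCh38 coordinates. A gene broken over 5 lines was left out.

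After filterByExpr and TMM scaling (factors 0.927 to 1.03), 1 quasi-likelihood model with robust dispersions and a mean for every group was fitted over 18289 genes in edgeR 4.0.16, with limma 3.58.1 under R 4.3.3. The SE is the size of the log2 fold change over the square root of F, and 95% intervals use the model's degrees of freedom. CPM are counts over TMM-scaled totals. Per-kilobase values use the deposited exon length. The intervals include the spread between libraries, and floors cover counting error only. The average comparison is the mean of both genotype differences.

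The members and partner lists follow known roles, but they and the tests were chosen with earlier results of these data known. All members are reported, and values in every library are printed for those called in the average comparison. TOP2A, SMC5 and SGO1 were added after their values were seen. The alternatives were RLE and upper-quartile scaling, no filter or 1 CPM in 3 libraries, and DESeq2 1.42.0. Others used only the libraries compared, added a replicate block, or left out each library in turn. All share most of their libraries, so they are not independent checks. For a comparison at 1 harvest, some left out a library of the other harvest.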

Additional observations from a re-analysis of the deposited data

How the results depend on the processing

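Values of single members were compared with the alternatives 3696 times, and 3632 kept their direction and side of the threshold. A call was lost in 40 and gained in 24, and no called value reversed. Most of the 3696 were of values not called with the settings used here, which could lose no call. The 40 losses therefore fall on the few called values. Signs changed in 135 uncalled values, the largest of them 0.102 in size on the log2 scale. Among the 33 members at the initial harvest (2 called), 1 was called without a filter on low counts, 1 with a replicate block and 1 with only the libraries compared, and 0 to 5 when 1 library was left out, with 5 without initial WT replicate 2 and 0 without initial WT replicate 3 or any 1 initial KO library. At the final harvest (4 called) leaving out 1 library gave 3 to 5, and in the average (7 called) 5 to 9. Upper-quartile scaling, at least 1 CPM in 3 libraries and DESeq2 each added calls. These were NCAPD3 at the initial harvest, and TOP2A at the final harvest and in the average. For time in the WT (2 called), 1 was called with only the libraries compared and 0 to 3 without 1 library, with 0 without final WT replicate 2. For time in the KO it was 0 throughout, and for the interaction DESeq2 called 1 and leaving out 1 library 0. The causes were not tested.

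The labels do not say whether replicate numbers pair the samples. Over 18 pairs of same-numbered libraries the correlations of deviations ran from -0.613 to 0.63, and 8 were above 0.1. Libraries with different numbers were not compared, so these values cannot decide on a pairing. The replicate block is therefore given as an alternative, and the initial STAG2 call was lost with it. Over all genes, time in the KO called 270 genes, against 484 without the filter, 602 with DESeq2, 728 with only the libraries compared and 94 to 463 without 1 library. The interaction called 235, against 423 without the filter, 472 with DESeq2 and 124 to 444 without 1 library. Time in the WT called 1183, against 578 with only the libraries compared and as few as 627 without 1 library, and the initial comparison 3635 against 2423 without initial KO replicate 2. The lowest measured member, HDAC8, had 5.01 to 7.53 CPM, and the part of depth in the calls was not tested.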
